A study of Rattus norvegicus with 18 samples.

Results

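The mitochondrial respiratory chain genes of the nuclear genome were followed in rat liver during repeated dosing with diethylnitrosamine (DEN), a DNA-alkylating liver carcinogen, or carbon tetrachloride (CCl4), a liver toxicant that injures hepatocytes without being classed as genotoxic. Members were all genes whose symbol begins with Ndufa, Ndufb, Ndufc, Ndufs, Ndufv, Sdh, Uqcr, Cox4, Cox5, Cox6, Cox7 or Cox8, except Cox6a2, which the rule leaves out. Probes matched 68 such genes among 15645 named genes on the array. Of these, 65 were tested among 10914 genes, and all 65 were well above background on all 18 arrays on the probe used. They comprised 53 subunits of complexes I to IV, 8 assembly factors (the Ndufaf and Sdhaf genes, which the symbol rule also catches), 3 tissue-restricted isoforms of complex IV (Cox4i2, Cox6b2 and Cox8b) and the supercomplex factor Cox7a2l. The 3 members that were not tested, Cox7c, Cox8c and the pseudogene Cox6c-ps1, were well above background on 0 of 18 arrays on every probe save the second of Cox8c, which was so on 1 array (CCl4 replicate 3 of day 28). A further 28 coding genes of the rule had no matched probe and were not analysed here.

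Complex I (the Nduf genes) takes electrons from NADH and complex II (the Sdh genes) takes them from succinate, and both hand them to ubiquinone. Complex III (the Uqcr genes) passes them on to cytochrome c, and complex IV (the Cox genes and Ndufa4) passes them to oxygen. Complexes I, III and IV pump protons across the inner mitochondrial membrane, and ATP synthase uses that gradient. Hepatocytes are rich in mitochondria and use the chain to fund glucose, urea and bile acid production. Several core subunits of complexes I, III and IV are encoded in the mitochondrial genome and lie outside the rule.

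Total RNA of whole liver from 18 male F344/NSlc rats, bought at 5 weeks of age and acclimatised before dosing, was hybridised to Agilent 1-colour arrays with 1 rat per array. The 6 groups of 3 rats were DEN (4 mg/kg, in saline), CCl4 (100 mg/kg, in corn oil) and control at day 28, and the same at day 84, with both agents given daily by gavage. The titles call the controls vehicle, whereas the treatment protocol describes untreated rats on basal diet, so that gavage, saline and corn oil cannot be told apart from the agents. The series title asks about genes that are hypermethylated and less expressed with non-genotoxic hepatocarcinogens, and the design text mentions day 28 only.

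A level here is the log2 processed signal of a gene's probe minus the 75th percentile of its array, so a level of 0 equals that percentile, and levels of different genes are not compared. A gene was called where limma's moderated test, with Benjamini-Hochberg adjustment across the 10914 genes, gave a p under 0.05. The arrays had 47.2% to 57.0% of probes well above background and none saturated, and their number limits the precision. All 8 hepatocyte markers were well above background on all 18 arrays. CCl4 replicate 2 of day 28 stood apart from the other arrays of its group (first principal component 75.7, against 38.1 and 25.4), and its effect on the counts is given where it matters. Slide 1 held all day-28 arrays but CCl4 replicate 3, slide 2 held that array, the controls and DEN arrays of day 84 and CCl4 replicate 1 of day 84, and slide 3, scanned on another day, held CCl4 replicates 2 and 3 of day 84. The 75th percentile itself rose relative to the 280 spike-in spots, by 0.41 (DEN) and 0.80 (CCl4) at day 28 and by 0.72 (DEN) and 0.55 (CCl4) at day 84. Every direction below is therefore relative to the 75th percentile of the array. With spike-in scaling the median of all genes moved to 0.36, 0.74, 0.64 and 0.46 in these 4 comparisons.

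The promoters of 5 members, picked by their change with CCl4, are shown first. They are the 250 bases before the start in RefSeq's rat assembly GRCr8 for the subunit of each complex with the largest fall under CCl4 at day 28 that had an entry, and for Cox8b. Capitals mark the 10 letters GCGCA, any base, GCGC or their reverse complement (the letters of a nuclear respiratory factor 1 site, called the first motif here), CCGGAAG or CTTCCGG (an ETS site such as GABPA binds) and TATAAA or TTTATA, searched on both strands. The windows are chr20:9613536-9613785 on the plus strand for Ndufv3, chr1:30764303-30764552 on the plus strand for Sdha, chr1:184598990-184599239 on the plus strand for Uqcrc2, chr4:40975560-40975809 on the minus strand for Ndufa4 and chr1:205408274-205408523 on the minus strand for Cox8b.
Ndufv3: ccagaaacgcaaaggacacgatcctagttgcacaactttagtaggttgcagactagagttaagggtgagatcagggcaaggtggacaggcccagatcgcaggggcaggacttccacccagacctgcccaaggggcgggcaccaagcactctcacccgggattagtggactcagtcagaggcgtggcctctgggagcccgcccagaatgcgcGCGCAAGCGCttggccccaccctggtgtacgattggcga
Sdha: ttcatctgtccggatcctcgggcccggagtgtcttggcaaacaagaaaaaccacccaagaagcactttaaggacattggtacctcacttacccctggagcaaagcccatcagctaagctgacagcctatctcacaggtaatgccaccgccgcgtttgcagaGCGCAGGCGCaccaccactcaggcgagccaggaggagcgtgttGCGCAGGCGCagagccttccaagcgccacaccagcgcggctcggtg
Uqcrc2: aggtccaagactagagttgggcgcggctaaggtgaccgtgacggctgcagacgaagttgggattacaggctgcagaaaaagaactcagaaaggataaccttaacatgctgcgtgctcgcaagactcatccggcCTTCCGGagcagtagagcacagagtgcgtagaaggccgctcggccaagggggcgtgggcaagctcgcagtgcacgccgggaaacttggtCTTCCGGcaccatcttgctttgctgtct
Ndufa4: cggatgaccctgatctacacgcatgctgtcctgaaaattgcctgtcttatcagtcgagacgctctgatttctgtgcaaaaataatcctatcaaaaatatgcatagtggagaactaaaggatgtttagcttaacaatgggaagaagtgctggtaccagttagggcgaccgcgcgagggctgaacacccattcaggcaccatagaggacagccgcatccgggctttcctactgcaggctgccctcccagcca
Cox8b: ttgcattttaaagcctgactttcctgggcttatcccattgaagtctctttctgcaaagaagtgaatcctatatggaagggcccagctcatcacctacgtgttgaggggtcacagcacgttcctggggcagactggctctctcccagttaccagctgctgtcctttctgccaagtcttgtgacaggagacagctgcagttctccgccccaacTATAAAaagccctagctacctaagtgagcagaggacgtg
The Sdha window held 2 copies of the first motif and that of Ndufv3 held 1, the Uqcrc2 window held 2 copies of the ETS letters, the Cox8b window held 1 TATAAA, and none of the 3 motifs was in the Ndufa4 window. No 2 marked sites overlapped. Promoter entries matched 59 of the 68 members and 47 of the 54 subunits. The first motif stood in 7 of the 47 subunit promoters (14.9%), against 4.17% of all 27457 promoters of this length. CCGGAAG stood in 14 of 47 (29.8%), against 7.74% of all promoters, and at least 1 of these 2 motifs in 21 of 47 (44.7%), against 11.2%. TATAAA stood in 2 of 47 (4.26%), against 13.1% of all. A match is a description of the letters and not a bound site, and no test set the motifs against the changes. The ETS letters stood before Sdhb, which fell with CCl4 at day 28 (-0.65), and before Sdhaf1, which rose (0.56). None of the 3 motifs stood before Ndufs7, which fell (-0.79).

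CCl4 lowered most subunits of all 4 complexes at both days, relative to the 75th percentile. At day 28, 46 of 53 subunits fell and none rose, with a median log2 change of -0.51 and a range of -0.99 to -0.09, and at day 84, 49 of 53 fell and none rose, with a median of -0.47 and a range of -0.87 to -0.05. Over all 10914 genes, 33.6% were called lower with CCl4 at day 28 and 36.3% at day 84, and the median change was -0.06 and -0.10. DEN gave 3 falls and no rise among the 53 subunits at day 28 (median -0.12, range -0.34 to 0.07), where 7.19% of all genes were called lower. At day 84 DEN gave 36 falls and no rise (median -0.32, range -0.68 to 0.14), where 31.1% of all genes were called lower. Over all 65 members the calls were 0 higher and 3 lower with DEN at day 28, 3 higher and 48 lower with CCl4 at day 28, 3 higher and 39 lower with DEN at day 84, and 4 higher and 50 lower with CCl4 at day 84. The share of all genes called higher in these comparisons was 7.82%, 26.1%, 21.6% and 28%.

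**Figure D1:**
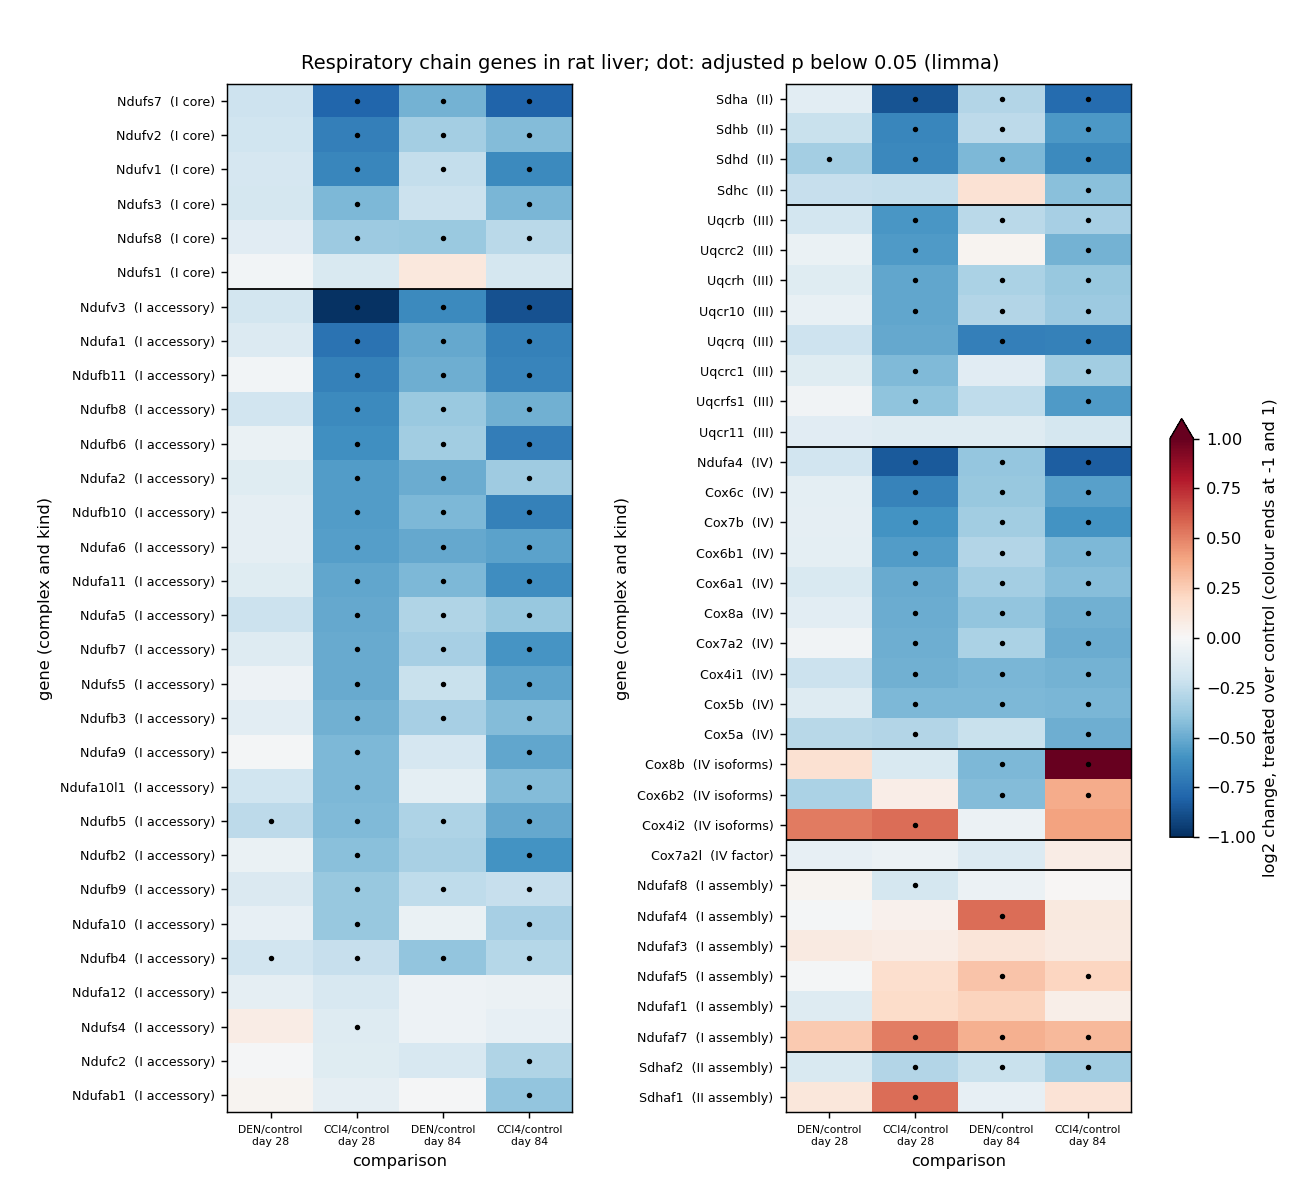
Heat map of 64 of the 65 tested members (rows, grouped by complex and kind) in the 4 comparisons of a treated group with the controls of the same day (columns), coloured by the log2 change, with colours ending at -1 and 1 and a dot where the limma adjusted p was below 0.05. Most subunit rows are below 0 with CCl4 on both days and with DEN at day 84, relative to the 75th percentile of each array; with spike-in scaling the subunit medians were above control.

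Relative to the 75th percentile, subunit medians of all 12 treated rats were below control. The median over the 53 subunits, set against the mean of the controls of the same day, was -0.11, -0.14 and -0.11 on the 3 DEN arrays and -0.39, -0.69 and -0.44 on the 3 CCl4 arrays of day 28. On day 84 it was -0.31, -0.36 and -0.27 on the DEN arrays and -0.55, -0.41 and -0.53 on the CCl4 arrays. Control arrays lay between -0.02 and 0.03, so no treated array overlapped them in this median, and the weakest CCl4 array of either day lay below every DEN array. All 3 CCl4 arrays lay below all 3 controls for 46 subunits at day 28 and 51 at day 84, and DEN arrays did so for 38 and 45. Over all genes such separation downwards held for 34.6% and 40.8% with CCl4 and for 25.8% and 38.6% with DEN. The 38 subunits with DEN at day 28 therefore separated by small steps, of which 3 passed the test.

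The direction depended on what the arrays were scaled to. Against the spike-in probes the median subunit changed by 0.28 (DEN) and 0.30 (CCl4) at day 28 and by 0.40 (DEN) and 0.08 (CCl4) at day 84, and 9, 31, 42 and 6 subunits were called higher, with 0, 0, 0 and 1 called lower. Relative to the median of all genes, which does not depend on either of these 2 scalings, the median subunit stood at -0.08, -0.44, -0.24 and -0.38. It did depend on other processing. The same measure was 0.02, -0.22, -0.10 and -0.20 with quantile normalisation. With normexp background correction it was -0.002, -0.24, -0.10 and -0.30. With quantile normalisation, 4 subunits were called higher and 29 lower with CCl4 at day 28, 4 higher and 16 lower with DEN at day 84, and 2 higher and 33 lower with CCl4 at day 84. DEN at day 28 gave 0 calls among the subunits with that method, and its subunit median was 0.03.

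**Figure D2:**
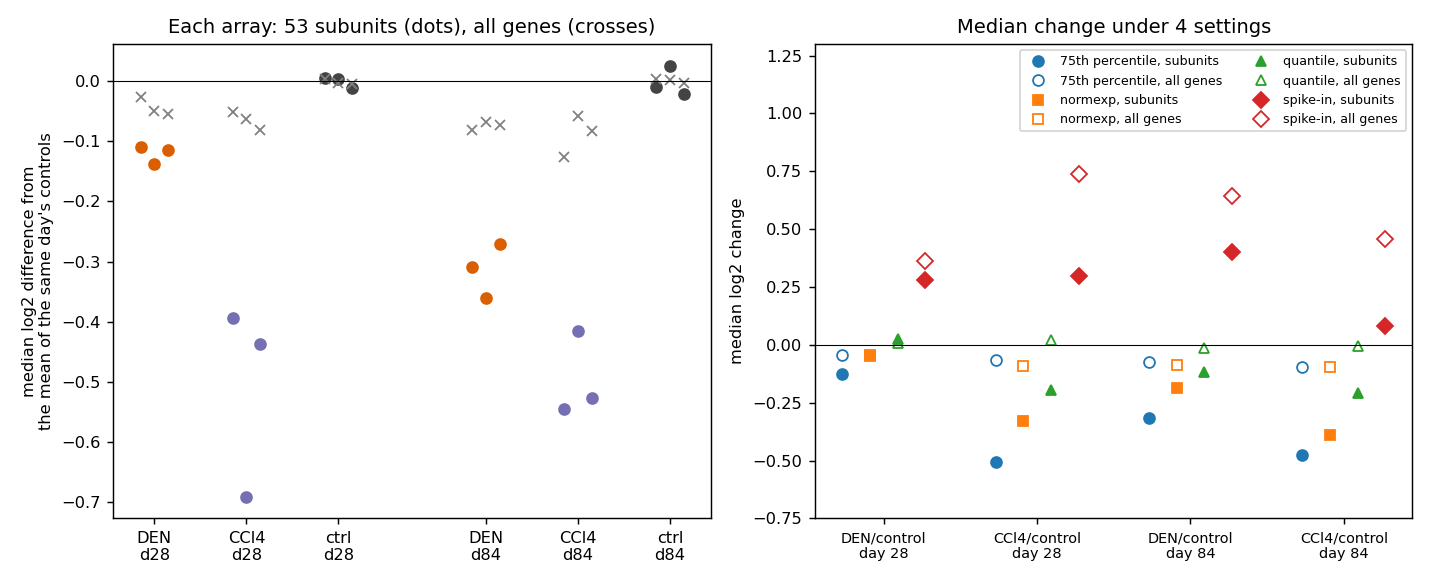
Left, the median level of the 53 subunits (dots) and of all tested genes (crosses) on each array, as the log2 difference from the mean of the control arrays of the same day. Right, the median log2 change of the subunits (filled) and of all genes (hollow) under 3 scalings and with normexp background correction; subunit medians are negative with the 75th percentile and positive with spike-in scaling (0.28, 0.30, 0.40 and 0.08), and lie below the median of all genes in every comparison except DEN at day 28 with quantile normalisation.

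Complex I was measured through 7 core and 24 accessory subunits. Of the 7 core subunits, which carry the flavin and iron-sulfur centres, CCl4 lowered 6 at day 28 (median -0.50) and 6 at day 84 (median -0.46), while DEN lowered 0 at day 28 (median -0.17) and 4 at day 84 (median -0.23). With spike-in scaling the core medians were positive (0.30 and 0.10 for CCl4, 0.24 and 0.48 for DEN). Ndufs7, which holds an iron-sulfur cluster close to the ubiquinone site, had levels of 7.06, 7.09 and 7.08 with DEN, 6.62, 6.31 and 6.55 with CCl4 and 7.34, 7.28 and 7.23 in controls at day 28. At day 84 the Ndufs7 levels were 6.57, 6.48 and 6.65 with DEN, 6.14, 6.36 and 6.22 with CCl4 and 7.05, 7.09 and 6.98 in controls. Controls were highest, CCl4 arrays lowest and DEN arrays between them without overlap on both days. The change was -0.79 (SE 0.08, limma adjusted p = 3.64e-06) with CCl4 at day 28, -0.80 (SE 0.08, limma adjusted p = 2.61e-06) with CCl4 at day 84 and -0.47 (SE 0.08, limma adjusted p = 0.000365) with DEN at day 84. Ndufv1, the subunit that binds NADH and flavin, had levels of 6.48, 6.53 and 6.50 with DEN, 6.15, 5.78 and 6.14 with CCl4 and 6.68, 6.70 and 6.63 in controls at day 28. Its day-84 levels were 6.26, 6.25 and 6.30 with DEN, 5.76, 5.99 and 5.86 with CCl4 and 6.47, 6.57 and 6.48 in controls. The 3 groups kept apart in the same order, and Ndufv1 fell by 0.65 with CCl4 at day 28, by 0.63 with CCl4 at day 84 and by 0.23 with DEN at day 84 (limma adjusted p = 3.59e-05, 3.52e-05 and 0.0401). The Ndufv1 call with DEN was lost in all 6 fits without 1 array (limma adjusted p up to 0.121). Its neighbour Ndufv2 fell by 0.68 and 0.43 with CCl4 at days 28 and 84 and by 0.34 with DEN at day 84.

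Ndufs1, the large iron-sulfur subunit, was the core subunit that was not called against controls in any comparison. Its levels at day 84 were 4.30, 4.21 and 4.24 with DEN, 4.02, 3.97 and 3.90 with CCl4 and 4.12, 4.11 and 4.19 in controls, so that DEN arrays lay above and CCl4 arrays below the controls, by 0.11 and -0.18. At day 28 the Ndufs1 levels were 4.24, 4.29 and 4.24 with DEN, 4.28, 3.90 and 4.22 with CCl4 and 4.42, 4.26 and 4.18 in controls, and all groups overlapped.

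Among the 24 accessory subunits of complex I, which surround the core and stabilise it, CCl4 lowered 21 at day 28 (median -0.49) and 22 at day 84 (median -0.50), and DEN lowered 2 at day 28 (median -0.10) and 16 at day 84 (median -0.33). With spike-in scaling these medians were 0.31 and 0.06 for CCl4 and 0.31 and 0.39 for DEN. Ndufv3, a small subunit of the NADH-binding arm, had the largest fall of any member with CCl4 at both days. Its levels at day 28 were 7.69, 7.56 and 7.60 with DEN, 6.93, 6.55 and 6.95 with CCl4 and 7.74, 7.80 and 7.86 in controls. At day 84 they were 7.04, 6.86 and 7.05 with DEN, 6.59, 6.94 and 6.71 with CCl4 and 7.64, 7.68 and 7.54 in controls. CCl4 arrays were far below DEN arrays at day 28, and the 2 groups overlapped at day 84. Ndufv3 fell by 0.99 (SE 0.11, limma adjusted p = 5.98e-06) with CCl4 at day 28, by 0.87 (SE 0.11, limma adjusted p = 1.33e-05) with CCl4 at day 84 and by 0.64 (SE 0.11, limma adjusted p = 0.00032) with DEN at day 84. Its change stayed negative with spike-in scaling with CCl4 (-0.18 at day 28 and -0.32 at day 84) and was 0.08 with DEN at day 84.

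Ndufa1 and Ndufa6 were among the largest falls with DEN at day 84. Ndufa1, a small membrane-arm subunit, had levels of 6.01, 5.92 and 6.01 with DEN, 5.87, 5.91 and 5.66 with CCl4 and 6.43, 6.53 and 6.52 in controls at day 84. At day 28 the Ndufa1 levels were 6.47, 6.46 and 6.39 with DEN, 5.93, 5.63 and 5.96 with CCl4 and 6.56, 6.58 and 6.58 in controls. DEN and CCl4 arrays were close at day 84 and far apart at day 28, and Ndufa1 fell by 0.51 with DEN at day 84 and by 0.74 and 0.68 with CCl4 at days 28 and 84 (limma adjusted p = 0.000321, 1.07e-05 and 1.68e-05). Ndufa6, a subunit at the joint between the arms, had levels of 7.52, 7.41 and 7.62 with DEN, 7.43, 7.59 and 7.46 with CCl4 and 8.10, 8.01 and 7.97 in controls at day 84. At day 28 they were 8.11, 8.06 and 8.0 with DEN, 7.74, 7.28 and 7.79 with CCl4 and 8.13, 8.22 and 8.10 in controls. DEN arrays overlapped the controls at day 28 and the CCl4 arrays at day 84, and Ndufa6 fell by 0.51 with DEN at day 84 and by 0.55 and 0.54 with CCl4.

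Ndufb4 and Ndufb5, accessory subunits of the membrane arm, supplied 2 of the 3 calls with DEN at day 28. Ndufb5 had levels of 5.67, 5.65 and 5.66 with DEN, 5.63, 5.25 and 5.57 with CCl4 and 5.94, 5.95 and 5.89 in controls at day 28, and of 5.52, 5.57 and 5.49 with DEN, 5.29, 5.41 and 5.27 with CCl4 and 5.81, 5.89 and 5.81 in controls at day 84. Ndufb4 had levels of 7.52, 7.46 and 7.43 with DEN, 7.5, 7.34 and 7.46 with CCl4 and 7.69, 7.68 and 7.62 in controls at day 28, and of 7.11, 7.06 and 7.12 with DEN, 7.17, 7.27 and 7.17 with CCl4 and 7.54, 7.5 and 7.43 in controls at day 84. Both genes separated every treated array from the controls of its day. With DEN at day 28 Ndufb5 fell by 0.27 (SE 0.08, limma adjusted p = 0.0442) and Ndufb4 by 0.19 (SE 0.06, limma adjusted p = 0.0482), and both calls were lost in all 6 fits that left out 1 array. For Ndufb4 with CCl4 at day 28 the change was -0.23, and it was above the median of all genes with quantile normalisation (by 0.10) and with normexp background correction (by 0.05). Ndufa12, an accessory subunit of the peripheral arm, was called in none of the 4 comparisons with controls, and Ndufs4, a peripheral-arm subunit known for its role in human Leigh syndrome, was called with CCl4 at day 28 (-0.13).

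**Figure D3:**
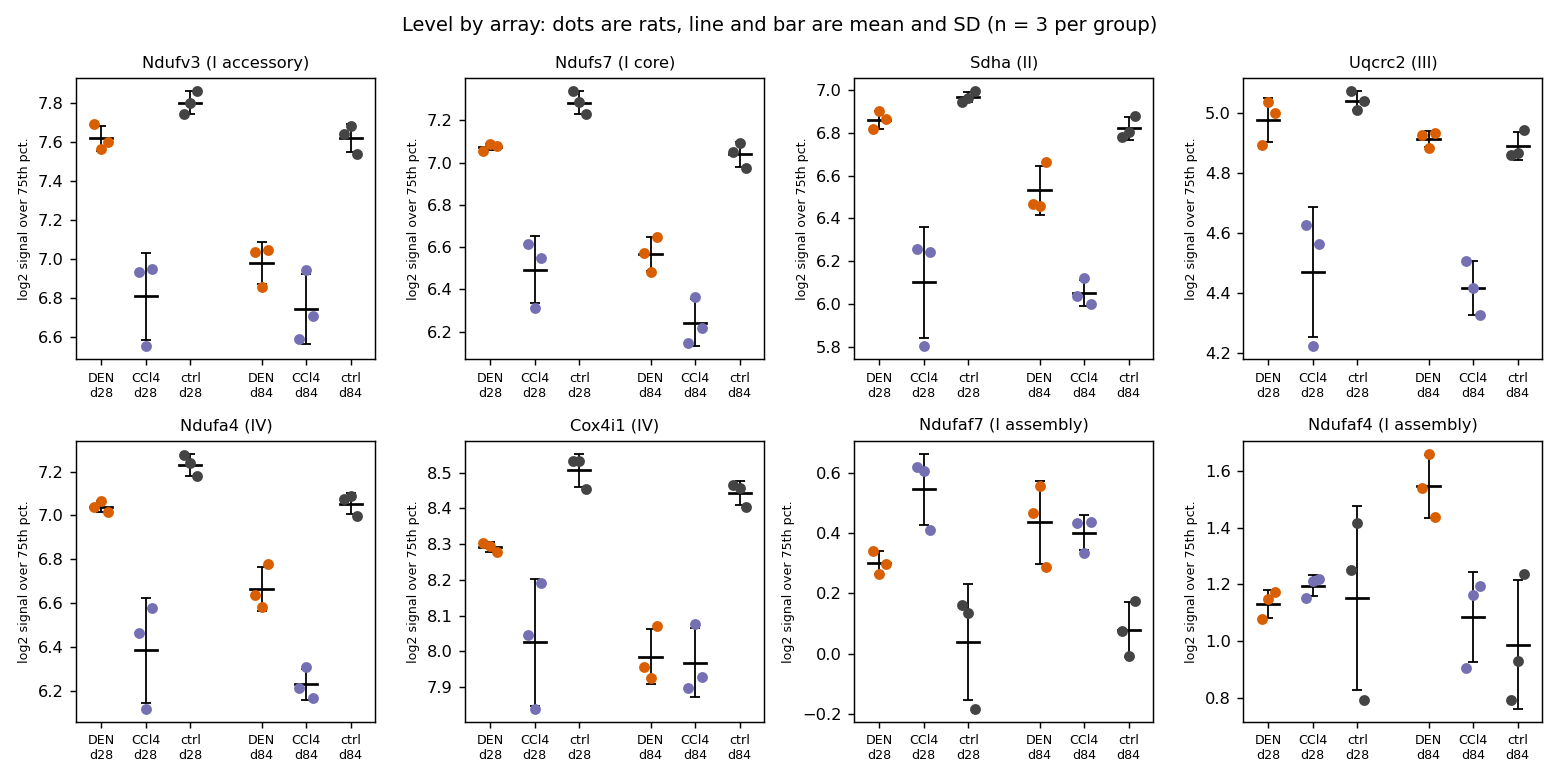
Levels of 8 members in the 6 groups (log2 over the 75th percentile of the array), with dots for rats and a line and bar for the mean and SD of 3 rats. Ndufv3, Ndufs7, Sdha, Uqcrc2, Ndufa4 and Cox4i1 are lower with CCl4 than in controls at both days on this scale, and the assembly factor Ndufaf7 is higher; with spike-in scaling the falls of Ndufv3, Sdha and Ndufa4 with CCl4 keep their sign, that of Ndufs7 at day 28 turns to 0.01, and those of Uqcrc2 and Cox4i1 turn positive.

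Complex II is the smallest complex and also an enzyme of the citric acid cycle, and CCl4 lowered 3 of its 4 subunits at day 28 (median -0.65) and 4 of 4 at day 84 (median -0.61). DEN lowered 1 at day 28 (median -0.23) and 3 at day 84 (median -0.27). With spike-in scaling the medians were 0.16 and -0.05 for CCl4 and 0.18 and 0.44 for DEN. Sdha, the flavoprotein that oxidises succinate, had levels of 6.82, 6.90 and 6.87 with DEN, 6.26, 5.80 and 6.24 with CCl4 and 6.95, 6.96 and 6.99 in controls at day 28. At day 84 the Sdha levels were 6.47, 6.46 and 6.66 with DEN, 6.04, 6.12 and 6.0 with CCl4 and 6.78, 6.80 and 6.88 in controls. CCl4 arrays lay below all DEN arrays, and those below all controls, on both days. Sdha fell by 0.87 (SE 0.10, limma adjusted p = 9.83e-06) and 0.77 (SE 0.10, limma adjusted p = 2.1e-05) with CCl4 at days 28 and 84. Its fall of 0.29 with DEN at day 84 (limma adjusted p = 0.0278) was lost without DEN replicate 1 or 2 or control replicate 2 or 3, and with quantile normalisation or normexp correction.

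Sdhb, the iron-sulfur subunit, had levels of 5.05, 5.13 and 5.09 with DEN, 4.77, 4.42 and 4.79 with CCl4 and 5.42, 5.30 and 5.22 in controls at day 28. Those of day 84 were 4.91, 4.81 and 4.87 with DEN, 4.47, 4.65 and 4.51 with CCl4 and 5.07, 5.18 and 5.11 in controls. The order was the same as for Sdha on both days, and Sdhb fell by 0.65 and 0.58 with CCl4 and by 0.26 with DEN at day 84 (limma adjusted p = 4.34e-05, 9.49e-05 and 0.0288). The Sdhb call with DEN was lost without DEN replicate 2 or 3 or control replicate 2 or 3 (limma adjusted p up to 0.0909). Sdhd, a membrane anchor that helps bind ubiquinone, was the member with the largest called change with DEN at day 28. Its levels were 5.97, 6.01 and 6.08 with DEN, 5.89, 5.48 and 5.80 with CCl4 and 6.39, 6.32 and 6.38 in controls at day 28, and 5.70, 5.63 and 5.79 with DEN, 5.52, 5.58 and 5.47 with CCl4 and 6.09, 6.19 and 6.18 in controls at day 84. Every treated array lay below the controls of its day, and Sdhd fell at day 28 by 0.34 with DEN (SE 0.09, limma adjusted p = 0.0219) and by 0.64 with CCl4. The DEN call was lost in 4 of the 6 fits without 1 array. The fall at day 84 was 0.45 with DEN and 0.63 with CCl4. The other anchor, Sdhc, had levels of 3.10, 3.02 and 2.93 with DEN, 2.74, 2.36 and 2.27 with CCl4 and 2.85, 2.86 and 2.91 in controls at day 84. DEN arrays were above and CCl4 arrays below the controls, and the change of -0.42 with CCl4 was called (limma adjusted p = 0.0266), whereas that of 0.14 with DEN was not. The Sdhc call was lost in 5 of the 6 fits without 1 array, the exception being that without CCl4 replicate 1 (limma adjusted p up to 0.112).

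In complex III, CCl4 lowered 6 of 8 subunits at day 28 (median -0.52) and 7 of 8 at day 84 (median -0.37), and DEN lowered 0 at day 28 (median -0.12) and 4 at day 84 (median -0.26). Spike-in scaling gave medians of 0.29 and 0.18 for CCl4 and 0.29 and 0.46 for DEN. Uqcrc2, a core protein of the matrix side, had levels of 4.89, 5.04 and 5.00 with DEN, 4.63, 4.22 and 4.56 with CCl4 and 5.07, 5.01 and 5.04 in controls at day 28. Its day-84 levels were 4.93, 4.88 and 4.93 with DEN, 4.51, 4.42 and 4.33 with CCl4 and 4.86, 4.87 and 4.94 in controls. DEN arrays overlapped the controls on both days and CCl4 arrays did not. Uqcrc2 fell by 0.57 and 0.47 with CCl4 (limma adjusted p = 0.000104 and 0.000383), and its change with DEN was -0.06 and 0.02. Uqcrc1, its partner, had levels of 5.23, 5.20 and 5.14 with DEN, 5.05, 4.79 and 4.78 with CCl4 and 5.38, 5.34 and 5.22 in controls at day 28. On day 84 they were 5.06, 5.13 and 4.90 with DEN, 4.59, 4.98 and 4.81 with CCl4 and 4.97, 5.22 and 5.22 in controls, where the CCl4 and control arrays overlapped by 1 rat. Uqcrc1 fell by 0.44 and 0.35 with CCl4 (limma adjusted p = 0.0031 and 0.0117), and the day-84 call was lost without CCl4 replicate 1 (limma adjusted p = 0.0642).

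Uqcrfs1, the Rieske iron-sulfur protein, had levels of 5.86, 5.93 and 5.89 with DEN, 5.69, 5.22 and 5.68 with CCl4 and 5.96, 6.0 and 5.83 in controls at day 28. The day-84 levels were 5.66, 5.50 and 5.63 with DEN, 5.28, 5.35 and 5.24 with CCl4 and 5.85, 5.88 and 5.83 in controls. CCl4 arrays were below controls on both days, with falls of 0.40 and 0.56 (limma adjusted p = 0.00431 and 0.000308), and the change with DEN at day 84 was -0.25 (limma adjusted p = 0.0525). The small subunits Uqcrb, Uqcrh and Uqcr10 fell by 0.58, 0.52 and 0.52 with CCl4 at day 28, by 0.33, 0.38 and 0.36 with CCl4 at day 84 and by 0.27, 0.32 and 0.29 with DEN at day 84. Uqcr11 was called in none of these comparisons (-0.13 with CCl4 at day 28 and -0.18 at day 84). Uqcrq, another small subunit, read differently from the rest, with levels of -2.68, -2.71 and -2.15 with DEN, -3.10, -3.33 and -2.03 with CCl4 and -2.42, -2.21 and -2.29 in controls at day 28. At day 84 the levels were -2.08, -2.08 and -2.04 with DEN, -2.13, -1.98 and -2.09 with CCl4 and -1.17, -1.44 and -1.56 in controls. Treated arrays of day 84 lay below their controls but above most arrays of day 28, and the controls of day 84 exceeded those of day 28 by 0.92. The falls of 0.68 with DEN and 0.68 with CCl4 at day 84 (limma adjusted p = 0.0335 and 0.0278) were lost in 5 and 4 of the 6 fits without 1 array.

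In complex IV, 10 of 10 subunits fell with CCl4 at day 28 (median -0.50) and at day 84 (median -0.49), and 9 of 10 fell with DEN at day 84 (median -0.37), against 0 with DEN at day 28 (median -0.12). The medians with spike-in scaling were 0.30 and 0.07 for CCl4 and 0.29 and 0.35 for DEN. Ndufa4, named for complex I but a subunit of complex IV, had the largest fall, with levels of 7.04, 7.07 and 7.02 with DEN, 6.47, 6.12 and 6.58 with CCl4 and 7.28, 7.24 and 7.18 in controls at day 28. Levels at day 84 were 6.64, 6.58 and 6.78 with DEN, 6.21, 6.31 and 6.17 with CCl4 and 7.07, 7.09 and 7.0 in controls. The 3 groups did not overlap on either day. Ndufa4 fell by 0.84 (SE 0.10, limma adjusted p = 7.77e-06) and 0.82 (SE 0.10, limma adjusted p = 7.51e-06) with CCl4 and by 0.39 (SE 0.10, limma adjusted p = 0.00424) with DEN at day 84. Cox4i1, the ubiquitous form of subunit 4, had levels of 8.30, 8.30 and 8.28 with DEN, 8.05, 7.84 and 8.19 with CCl4 and 8.53, 8.53 and 8.45 in controls at day 28. At day 84 they were 7.96, 7.93 and 8.07 with DEN, 7.90, 8.08 and 7.93 with CCl4 and 8.47, 8.46 and 8.40 in controls. DEN and CCl4 arrays separated at day 28 and overlapped at day 84, and Cox4i1 fell by 0.48 and 0.47 with CCl4 and by 0.46 with DEN at day 84 (limma adjusted p = 0.00019, 0.000179 and 0.000439).

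Cox5a and Cox5b sit beside the mitochondrially encoded core of complex IV. Cox5b had levels of 8.24, 8.19 and 8.24 with DEN, 8.05, 7.80 and 7.86 with CCl4 and 8.31, 8.36 and 8.39 in controls at day 28, and of 7.72, 7.62 and 7.82 with DEN, 7.52, 7.91 and 7.71 with CCl4 and 8.13, 8.18 and 8.20 in controls at day 84. It fell by 0.45 and 0.46 with CCl4 and by 0.45 with DEN at day 84, with DEN and CCl4 arrays intermixed on that day. Cox5a had levels of 4.17, 4.16 and 4.04 with DEN, 4.07, 3.85 and 4.37 with CCl4 and 4.35, 4.45 and 4.39 in controls at day 28, and of 4.32, 4.23 and 4.31 with DEN, 4.17, 4.03 and 3.87 with CCl4 and 4.54, 4.55 and 4.45 in controls at day 84. CCl4 replicate 3 of day 28 reached the controls, and the fall of 0.30 at that day (limma adjusted p = 0.029) was not called in every fit without 1 array, while that of 0.49 at day 84 was (limma adjusted p = 0.00131).

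The liver forms of the paired subunits, Cox6a1, Cox6b1, Cox7a2 and Cox8a, fell together. Cox6a1 had levels of 9.16, 9.21 and 9.19 with DEN, 8.89, 8.74 and 8.88 with CCl4 and 9.28, 9.41 and 9.33 in controls at day 28, and of 8.83, 8.77 and 8.85 with DEN, 8.65, 8.85 and 8.70 with CCl4 and 9.16, 9.19 and 9.12 in controls at day 84. Cox6b1 had levels of 6.48, 6.48 and 6.50 with DEN, 6.20, 5.93 and 5.95 with CCl4 and 6.52, 6.64 and 6.60 in controls at day 28, and of 6.06, 6.0 and 6.10 with DEN, 5.72, 6.04 and 5.95 with CCl4 and 6.34, 6.38 and 6.33 in controls at day 84. In both genes DEN arrays of day 28 lay just below the controls, and those of day 84 overlapped the CCl4 arrays. Cox7a2 had levels of 6.35, 6.37 and 6.36 with DEN, 6.04, 5.72 and 5.95 with CCl4 and 6.39, 6.43 and 6.37 in controls at day 28, and of 5.90, 5.82 and 5.91 with DEN, 5.67, 5.77 and 5.66 with CCl4 and 6.19, 6.23 and 6.16 in controls at day 84. Cox8a had levels of 8.0, 7.95 and 7.99 with DEN, 7.73, 7.37 and 7.66 with CCl4 and 8.07, 8.11 and 8.07 in controls at day 28, and of 7.63, 7.52 and 7.63 with DEN, 7.42, 7.65 and 7.44 with CCl4 and 7.92, 8.05 and 8.0 in controls at day 84. Treated arrays of day 84 lay below controls for all 4 genes. With CCl4 the falls were 0.51, 0.56, 0.49 and 0.50 at day 28 and 0.42, 0.45, 0.49 and 0.48 at day 84, and with DEN at day 84 they were 0.34, 0.29, 0.32 and 0.40, in the order Cox6a1, Cox6b1, Cox7a2, Cox8a. For Cox6a1 the change lay above the median of all genes with quantile normalisation, by 0.19 and 0.08 with CCl4 and by 0.18 with DEN at day 84. Cox6c and Cox7b, further small subunits, fell by 0.67 and 0.60 with CCl4 at day 28 and by 0.55 and 0.59 at day 84.

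Of the 3 tissue-restricted isoforms, Cox8b and Cox6b2 rose with CCl4 and fell with DEN at day 84 on the probes used, and Cox4i2 rose with CCl4 at day 28. Cox8b, the isoform of subunit 8 known from heart, skeletal muscle and brown fat, had levels of -3.02, -3.55 and -3.09 with DEN, -1.18, -1.12 and -0.82 with CCl4 and -2.90, -2.64 and -2.76 in controls at day 84. At day 28 they were -2.66, -2.49 and -2.65 with DEN, -2.73, -3.07 and -2.94 with CCl4 and -2.62, -2.79 and -2.85 in controls. The 3 CCl4 arrays of day 84 stood above all 15 others. Cox8b rose 3.31-fold with CCl4 at day 84 (log2 change 1.73, SE 0.14, limma adjusted p = 3.84e-07) and fell by 0.45 with DEN (limma adjusted p = 0.0158), a call that was lost without DEN replicate 2 or control replicate 2. Its change with CCl4 at day 28 was -0.15. A second Cox8b probe was well above background on the 3 CCl4 arrays of day 84 and on no other, with levels of -1.99, -1.85 and -1.34 there. On that probe CCl4 was at least 4.10-fold above controls and at least 5.41-fold above DEN at day 84. Such a bound sets the mean of the bright group against the mean, for the dim group, of the higher of the probe's own signal and the lowest signal well above background on each array.

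Cox6b2, the isoform of subunit 6b known from testis, had levels of 1.40, 1.27 and 1.37 with DEN, 1.95, 2.15 and 2.36 with CCl4 and 1.78, 1.85 and 1.70 in controls at day 84. At day 28 they were 1.38, 1.21 and 1.36 with DEN, 1.51, 1.87 and 1.72 with CCl4 and 1.53, 1.84 and 1.54 in controls. DEN arrays were lowest on both days, and CCl4 arrays were highest at day 84. The change was 0.37 with CCl4 (limma adjusted p = 0.0118) and -0.43 with DEN (limma adjusted p = 0.00689) at day 84, and the CCl4 call was lost without CCl4 replicate 3 (limma adjusted p = 0.067). The second Cox6b2 probe was well above background on no control array, and its levels were -1.75, -0.46 and -1.89 with CCl4 at day 28, -2.77, -2.66 and -2.68 with DEN at day 84 and -0.68, -0.57 and -0.14 with CCl4 at day 84. On it CCl4 was at least 4.55-fold above controls at day 28 and at least 9.73-fold at day 84, and DEN at least 2.06-fold at day 84, so that the 2 probes disagree on the direction with DEN on this scale. With spike-in scaling the falls of Cox6b2 and Cox8b with DEN at day 84 turn positive on the first probes. Among 31 members with several probes well above background on all arrays, the probes of every called gene agreed in sign (1 of 1, 24 of 24, 20 of 20 and 23 of 23 in the 4 comparisons).

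**Figure D4:**
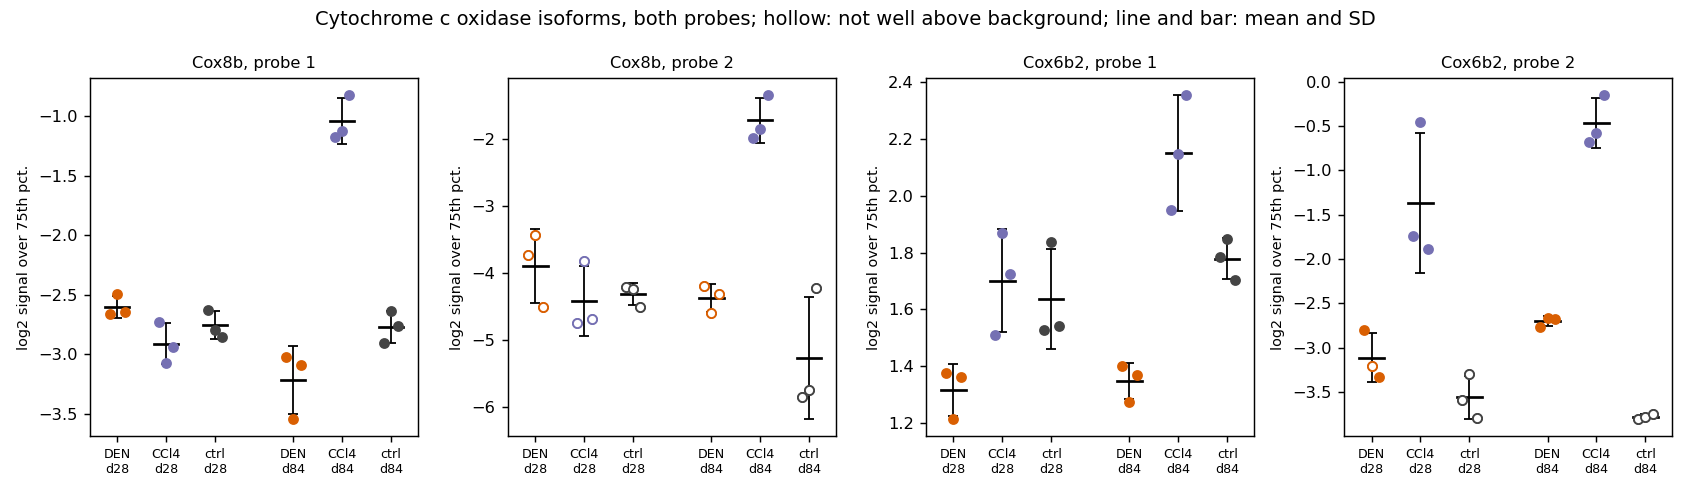
Levels of Cox8b and Cox6b2 on each of 2 probes in the 6 groups (log2 over the 75th percentile of the array), with hollow dots where a probe was not well above background. The CCl4 arrays of day 84 are highest for both Cox8b probes, and for Cox6b2 the second probe places DEN at day 84 above controls while the first places it below, on this scale; with spike-in scaling the first also places it above.

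Cox4i2, the form of subunit 4 known from lung and from hypoxic cells, had levels of 1.45, 1.54 and 1.39 with DEN, 1.59, 1.2 and 1.71 with CCl4 and 1.13, 0.44 and 1.25 in controls at day 28. Those of day 84 were 0.90, 0.50 and 1.05 with DEN, 1.17, 1.37 and 1.27 with CCl4 and 0.95, 0.63 and 1.03 in controls. Control replicate 2 of day 28 was low, CCl4 replicate 2 overlapped the controls, and the change of 0.56 with CCl4 at day 28 (SE 0.20, limma adjusted p = 0.0255) was not called in every fit without 1 array. The second Cox4i2 probe gave 0.16. Cox7a2l, which helps join complexes III and IV, had levels of 6.12, 6.13 and 6.07 with DEN, 6.24, 6.14 and 6.02 with CCl4 and 6.19, 6.19 and 6.19 in controls at day 28, and of 5.89, 5.93 and 5.94 with DEN, 6.11, 6.17 and 6.14 with CCl4 and 5.96, 6.09 and 6.12 in controls at day 84. It was not called against controls, with changes from -0.14 to 0.08.

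Markers of other tissues that express these isoforms were measured too. Of 7 striated muscle genes, Ckm, Acta1 and Myh7 were well above background on 0 of 18 arrays and Myl1 on 1. Mb (myoglobin) was well above background on all 18 arrays and was not called, with a change of -0.39 with CCl4 at day 84. Tnnt3, a fast-muscle troponin, was well above background on all 3 CCl4 arrays and on 0 control arrays of day 84, and on 5 of 18 in all, and its change of 0.92 (SE 0.43, limma adjusted p = 0.0751) was not called. Tnnc2, another, rose by 2.57 with CCl4 at day 28 and 2.26 at day 84. The summed linear level of the 7 genes, of which 4 were not tested, was 2.27 to 2.44 with CCl4, 0.852 to 1.08 with DEN and 0.771 to 0.858 in controls at day 84. At day 28, when the Cox8b change with CCl4 was -0.15, the sum was 1.55 to 2.16 with CCl4. It was 0.850 to 1.09 with DEN and 0.532 to 0.825 in controls on that day. Of the brown fat genes, Ucp1 was well above background on 0 of 18 arrays, and Cidea rose by 1.69 with CCl4 at day 28, by 2.04 with DEN at day 84 and by 1.83 with CCl4 at day 84. The part of Tnnc2-, Tnnt3- or Cidea-expressing cells in the Cox8b level was not tested.

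Assembly factors build the complexes and are not part of them. Of 8 factors, 2 rose and 2 fell with CCl4 at day 28 (median 0.12), 3 rose and 1 fell with DEN at day 84 (median 0.17), 2 rose and 1 fell with CCl4 at day 84 (median 0.09), and 0 were called with DEN at day 28. Over all genes, 26.1% were called higher and 33.6% lower with CCl4 at day 28, 21.6% and 31.1% with DEN at day 84, and 28% and 36.3% with CCl4 at day 84, and no test set the factors against other genes. With spike-in scaling 8, 8 and 7 of them were called higher in the first 3 comparisons and 3 with DEN at day 28. Ndufaf7, an arginine methyltransferase that acts in complex I assembly in human cells, had levels of 0.34, 0.26 and 0.30 with DEN, 0.62, 0.61 and 0.41 with CCl4 and 0.16, 0.14 and -0.18 in controls at day 28. On day 84 they were 0.47, 0.56 and 0.29 with DEN, 0.43, 0.34 and 0.44 with CCl4 and 0.07, -0.01 and 0.17 in controls. Every treated array stood above the controls of its day, and Ndufaf7 rose by 0.51 (limma adjusted p = 0.000549) with CCl4 at day 28, 0.36 (limma adjusted p = 0.00805) with DEN at day 84 and 0.32 (limma adjusted p = 0.0107) with CCl4 at day 84. Ndufaf4, a factor of early complex I intermediates, had levels of 1.54, 1.66 and 1.44 with DEN, 0.90, 1.16 and 1.19 with CCl4 and 0.79, 0.93 and 1.24 in controls at day 84. At day 28 they were 1.08, 1.15 and 1.17 with DEN, 1.15, 1.21 and 1.22 with CCl4 and 1.25, 1.42 and 0.79 in controls. DEN arrays of day 84 stood above both other groups, and the rise was 0.56 (SE 0.14, limma adjusted p = 0.00524).

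Ndufaf5, which hydroxylates Ndufs7 in human cells, had levels of 2.71, 2.90 and 2.67 with DEN, 2.72, 2.70 and 2.65 with CCl4 and 2.44, 2.40 and 2.58 in controls at day 84, and of 2.63, 2.69 and 2.60 with DEN, 2.88, 2.87 and 2.73 with CCl4 and 2.73, 2.64 and 2.61 in controls at day 28. It rose by 0.29 with DEN and 0.22 with CCl4 at day 84. Sdhaf1, which in human cells and yeast helps put iron-sulfur clusters into Sdhb, had levels of 3.24, 3.18 and 3.22 with DEN, 3.50, 3.95 and 3.53 with CCl4 and 2.89, 3.36 and 3.06 in controls at day 28. The day-84 levels were 3.33, 3.33 and 3.33 with DEN, 3.62, 3.61 and 3.42 with CCl4 and 3.39, 3.39 and 3.45 in controls. Sdhaf1 rose by 0.56 with CCl4 at day 28 (SE 0.12, limma adjusted p = 0.00122), the day on which Sdhb fell by 0.65, and its change at day 84 was 0.14. Sdhaf2, which in human cells and yeast helps attach the flavin to Sdha, fell by 0.29 and 0.35 with CCl4 and by 0.22 with DEN at day 84, and Ndufaf8 fell by 0.17 with CCl4 at day 28. Ndufaf1 and Ndufaf3 were not called in any of these comparisons.

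CCl4 was compared with DEN directly, since the agents differ in class, in dose and in solvent. At day 28, 42 of 53 subunits were lower with CCl4 than with DEN and none was higher (median -0.37), where 24.7% of all genes were called lower and 20.4% higher and the median of all genes was -0.03. At day 84, 17 were lower and none higher (median -0.18), where 15.8% of all genes were called lower and the median of all genes was 0.00. With spike-in scaling the day-28 calls became 3 higher and 2 lower, and the day-84 calls 0 higher and 23 lower. The day-84 calls held 4 of 7 core and 7 of 24 accessory subunits of complex I, 3 of 4 in complex II, 2 of 8 in complex III and 1 of 10 in complex IV. Median differences were -0.29, -0.17, -0.40, -0.07 and -0.16 in that order. Sdhc (-0.56, limma adjusted p = 0.0117), Uqcrc2 (-0.50, limma adjusted p = 0.000877), Sdha (-0.48, limma adjusted p = 0.0027) and Ndufa4 (-0.44, limma adjusted p = 0.00351) differed between the agents at day 84, and the Sdhc call was lost without CCl4 replicate 3. Of all members called, 35 of 45 at day 28 and 12 of 21 at day 84 were called in every fit without 1 array. The day-84 subunit calls lost in 1 or more of these fits were those of Ndufb6, Ndufb7, Ndufs1, Ndufs3, Sdhb, Sdhc and Uqcrfs1. Cox4i1, Cox5b and Cox8a differed by -0.02, -0.01 and -0.09 and were not called. Among the other members, Cox8b (2.18, 4.52-fold, limma adjusted p = 2.04e-07), Cox6b2 (0.80) and Cox7a2l (0.22) were higher with CCl4 at day 84, where 18.5% of all genes were called higher, and Ndufaf4 (-0.46) was lower, though the calls of Cox7a2l and Ndufaf4 were lost in 1 and 3 of 6 fits without 1 array.

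**Figure D5:**
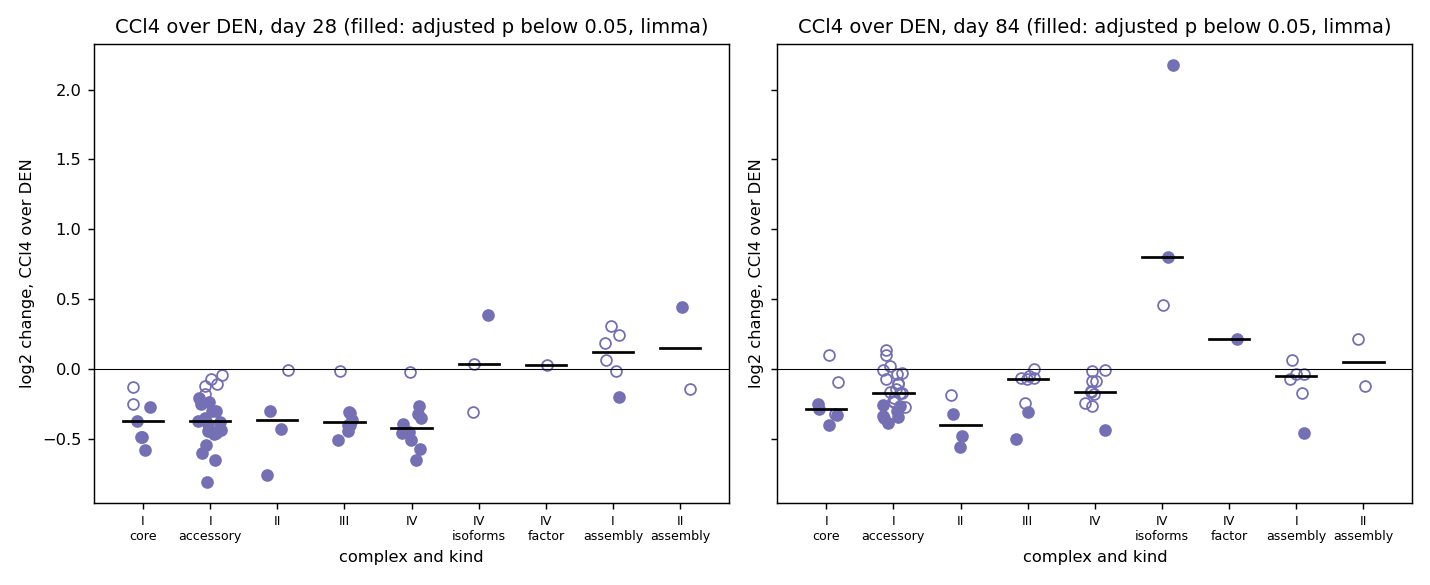
Log2 difference of CCl4 over DEN for each tested member, by complex and kind, at day 28 and day 84, with filled points for called members and a line at each median. Nearly all subunits lie below 0 at day 28. At day 84 the subunit median is lowest for complex II (-0.40), nearest 0 for complex III (-0.07) and -0.16 for complex IV. With spike-in scaling 3 subunits were higher and 2 lower at day 28, and 0 higher and 23 lower at day 84.

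The 2 days share no arrays, so that changes may be set side by side. Of the 46 subunits lowered by CCl4 at day 28, 45 (97.8%) were also lowered at day 84, which is 91.8% of the 49 lowered then. Ndufs4 was called at day 28 alone (a call lost in all 6 fits without 1 array), and Ndufab1, Ndufc2, Sdhc and Uqcrq at day 84 alone. Across the 53 subunits, which are not independent replicates, the CCl4 changes of the 2 days had a Pearson r of 0.80 and a Spearman rho of 0.70. Of the 36 subunits lowered by DEN at day 84, 35 (97.2%) were among the 46 lowered by CCl4 at day 28, which is 76.1% of those. The 11 others of the CCl4 list included Cox5a, Ndufa10, Ndufa10l1, Ndufa9, Ndufb2, Ndufs3, Ndufs4, Uqcrc1, Uqcrc2 and Uqcrfs1. CCl4 lowered 46 of 53 subunits at day 28 and 49 at day 84, so most of any set of subunits would be shared. The overlap over all genes was not counted. Changes with DEN at day 84 and with CCl4 at day 28 had a Pearson r of 0.63 and a Spearman rho of 0.58 across the 53 subunits. All 3 subunits called with DEN at day 28 were called with DEN at day 84. Of these 3 calls at day 28, 0 held in every fit without 1 array. On the scale of the levels given here, the fall with DEN was larger at day 84 for 45 of 53. The DEN effect at day 84 minus that at day 28 had a subunit median of -0.19 on this scale, but of 0.13 with spike-in scaling. In that difference 39 of 53 subunits lay below the median of all genes, which was -0.05 on the scale of the levels.

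The difference between days was also tested as an interaction. The DEN effect differed between days for 2 members, Ndufa2 (-0.37, SE 0.11, limma adjusted p = 0.0395) and Ndufb11 (-0.46, SE 0.14, limma adjusted p = 0.0413), both accessory subunits of complex I, where 8.41% of all genes were called lower and 7.64% higher. Each of these 2 calls was lost in 11 of 12 fits without 1 array. The CCl4 effect differed for Cox8b alone among the 65 members (1.88, SE 0.20, limma adjusted p = 0.000649), where 3.51% of all genes were called higher and 2.52% lower. Without CCl4 replicate 2 of day 28 the CCl4 interaction called 3 members, 1 higher and 2 lower. In control rats, day 84 against day 28 gave 1 member higher (Uqcrq, 0.92) and 5 lower (Ndufa12, Ndufa2, Ndufa5, Ndufaf8 and Uqcrb, from -0.31 to -0.25), against 4.44% and 5.32% of all genes. No member was called in every fit of this comparison that left out 1 array, and slide and day cannot be told apart there.

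For CCl4 the median subunit shift was as large within slides, where it rested on 2 CCl4 arrays at day 28 and 1 at day 84. The DEN and control arrays of a day shared 1 slide, so the DEN medians could not change in these settings. With slide as a block, 47 subunits were lower with CCl4 at day 28 (median -0.53) and 48 at day 84 (median -0.55), and DEN lowered 6 and 38. With arrays of 1 slide only, CCl4 lowered 47 at day 28 (2 CCl4 arrays), and the subunit median at day 84 was -0.55 (1 CCl4 array). DEN lowered 0 at day 28 and 40 at day 84 in that setting. Without CCl4 replicate 2 of day 28 the members called were 3 higher and 44 lower with a median of -0.38, against -0.48 with it. Leaving out any 1 array, 46 of the 51 members called with CCl4 at day 28 were called in every fit, as were 33 of 42 with DEN at day 84 and 48 of 54 with CCl4 at day 84, and 0 of the 3 with DEN at day 28. The calls lost in 1 or more of these fits were those of Cox4i2, Cox5a, Ndufaf8, Ndufb2 and Ndufs4 with CCl4 at day 28. With DEN at day 84 they were those of Cox8b, Ndufb6, Ndufs5, Ndufv1, Sdha, Sdhaf2, Sdhb, Uqcr10 and Uqcrq, and with CCl4 at day 84 those of Cox6b2, Ndufaf5, Ndufs8, Sdhc, Uqcrc1 and Uqcrq. Over all genes 59.7%, 52.7%, 64.3% and 15% were called in either direction in these comparisons.

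Lists around the chain moved unevenly. Over all genes, 7.82% were called higher and 7.19% lower with DEN at day 28, and 26.1% and 33.6% with CCl4 at day 28. At day 84 these shares were 21.6% and 31.1% with DEN and 28% and 36.3% with CCl4. They apply to the cell type markers below as well, and no test set any of these lists against other genes. ATP synthase, which uses the proton gradient, had 15 of 16 tested genes lower and 1 higher with CCl4 at day 28 (median -0.54), 14 lower and 1 higher with CCl4 at day 84 (median -0.49), 10 lower and 1 higher with DEN at day 84 (median -0.29) and 2 lower with DEN at day 28 (median -0.15). The gene that rose was Atp5if1, which inhibits ATP hydrolysis by the enzyme, by 1.08 and 1.1 with CCl4 at days 28 and 84 and by 1.97 with DEN at day 84. Atp5f1e and Atp5f1a fell by 0.74 and 0.70 with CCl4 at day 28. Of 16 electron carrier and ubiquinone genes, 8 were lower and 3 higher with CCl4 at day 28, 5 lower and 3 higher with DEN at day 84, 9 lower and 2 higher with CCl4 at day 84, and 2 lower with DEN at day 28 (medians -0.29, 0.06, -0.27 and -0.14). Coq8a, needed for ubiquinone synthesis, fell by 1.58 and 1.80 with CCl4, Coq10a by 1.14 and 1.32, and Etfdh, which feeds electrons from fatty acid oxidation to ubiquinone, by 0.78 and 1.0. Spike-in scaling adds the shift of the 75th percentile given above to every one of these changes, so that falls smaller than 0.80 with CCl4 at day 28, 0.72 with DEN at day 84 or 0.55 with CCl4 at day 84 turn positive.

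Among 15 regulators of mitochondrial genes, 8 were lower and 1 higher with CCl4 at day 28, 5 lower and 2 higher with DEN at day 84, 7 lower and 1 higher with CCl4 at day 84, and 0 lower and 1 higher with DEN at day 28. Of all genes, 33.6%, 31.1%, 36.3% and 7.19% were called lower and 26.1%, 21.6%, 28% and 7.82% higher, in that order. Gabpa, which binds the ETS letters shown above, fell by 0.36 and 0.41 with CCl4 and by 0.29 with DEN at day 84, and its partner Gabpb1 fell by 0.55 with DEN at day 84 (0.11 and -0.22 with CCl4, not called). Nrf1, whose factor reads the first motif, was not called (-0.14 and 0.05 with DEN and CCl4 at day 28, -0.19 and -0.12 at day 84). Yy1 fell by 0.62 and 0.53 with CCl4 and by 0.38 with DEN at day 84. The coactivator Ppargc1b fell by 1.63 and 0.88 with CCl4, whereas Ppargc1a was not called (-1.2 and 0.47 with CCl4, 0.12 and 0.83 with DEN) and Pprc1 was not (-0.08 to 0.30). Esrra, a nuclear receptor of chain genes, rose by 0.61 with DEN at day 28 and was otherwise not called (-0.11, 0.16 and -0.18), and Ppara fell by 0.86 with CCl4 at day 28. Of the factors of mitochondrial gene expression, Tfam fell by 0.20 and 0.41 with CCl4, Tfb2m by 0.39 and 0.54 and Polrmt by 0.41 and 0.63. Tfb1m rose by 0.30 and 0.29 with CCl4 and 0.52 with DEN at day 84. Polrmt also fell by 0.37 with DEN at day 84. Myc rose by 2.17 with DEN at day 84 (0.69 and 1.05 with CCl4, not called), and Hif1a fell by 0.30 and 0.42 with CCl4 and by 0.26 with DEN at day 84.

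Cell type markers changed as well, and in whole-liver RNA fewer cells of a type and less RNA per cell cannot be told apart. Of 8 hepatocyte markers, 3 fell with DEN at day 28 (median -0.30), 8 with CCl4 at day 28 (median -0.99), 7 with DEN at day 84 (median -0.68) and 7 with CCl4 at day 84 (median -0.60), and none rose. Their summed linear level was 4450 to 4550 with DEN, 2476 to 3147 with CCl4 and 5295 to 5514 in controls at day 28, and 2621 to 3067 with DEN, 2705 to 3602 with CCl4 and 4407 to 4589 in controls at day 84. Between CCl4 and DEN at day 84, 1 of the 8 markers was called (Hnf4a, lower) and their median difference was -0.01. In that comparison 15.8% of all genes were called lower and 18.5% higher. Of 7 stellate cell markers, 5 rose with CCl4 at day 28 and 6 at day 84, with sums of 87.5 to 166 at day 28 against 24.1 to 43.3 in controls and of 96.8 to 154 at day 84 against 18.3 to 22.4 in controls. With DEN 0 rose at day 28 and 3 rose and 1 fell at day 84, with sums of 40.3 to 47.3 and 29.4 to 34.7. Dividing cell markers rose in 4 of 4 with CCl4 at both days and with DEN at day 84, and in 2 of 4 with DEN at day 28. The part of these cell types in the subunit changes was not tested.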

How the data were processed

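Liver RNA of 18 rats was measured on Agilent 1-colour arrays. Per the file headers and the submitters' processing notes, Agilent Feature Extraction (version 10.7.1.1) was the authors' scanner software. Each deposited scanner file gives the intensity of every spot as processed, median and background signals. The value table deposited by the authors holds a linear ratio, which matched the processed signal over a constant for each array (100% of probes within 0.01 on the log2 scale; column medians 0.0852 to 0.0978, 75th percentiles 0.996 to 0.998). How the authors chose that constant is not given in the sources used here, and 0 of its columns lacked a sample.

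Of 62976 spots, 1439 were controls, and 18 probes marked as outliers were left out. Names came from RefSeq accessions: 28206 of 61537 probes matched 1 gene. Log2 processed signals were scaled to the 75th percentile of each array, whose signal was 170 to 325. The filter kept 33800 probes that were well above background throughout 1 or more groups of 3, and the brightest probe stood for each gene. Group means of all 18 arrays were fitted together with limma 3.58.1 (lmFit, eBayes; R 4.3.3 with its data.table package, version 1.17.8; 12 residual and 14.06 total degrees of freedom), with a threshold of 0.05 after Benjamini-Hochberg adjustment over 10914 genes, in 9 comparisons. Comparisons of 1 day share their control arrays. The fit was tested on simulated data. Motif searches (pandas 2.3.3) and plots (matplotlib 3.10.9, numpy 2.4.6) ran in Python 3.11.15. Promoters came from RefSeq (GRCr8), 1 window per symbol.

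Alternatives were other backgrounds (normexp, offset 50), scalings, filters, probe rules, slide or replicate number as a block, arrays of 1 slide, the authors' value table, and each array left out. Replicate numbers did not pair the rats: deviations of same-numbered arrays correlated at -0.13 to 0.13. The members and gene lists were chosen with earlier results of these data known. Members given with a level on every array were the 4 largest called rises and falls of each comparison with controls, set catalytic subunits and isoforms, and Uqcrc2 and Sdhc, which were added after their values were seen. RefSeq lists 70 pseudogenes of these symbols, and near-identical copies could share a probe's signal. The files place probes on an older genome build, so that no probe positions are given. The values of 1 member are not reported here, and the counts and medians of its group include it.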

Additional observations from a re-analysis of the deposited data

Results flagged for a closer look

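The CCl4 effect on Cox8b differed between the days by the interaction test, 1.88 at day 84 minus day 28 (SE 0.20, limma adjusted p = 0.000649). Behind it stood a change of 1.73 at day 84, higher on 3 of 3 CCl4 arrays, and of -0.15 at day 28. The difference was 1.63 with spike-in scaling and 1.73 with slide as a block (limma adjusted p = 0.00456 and 0.012). The DEN effect differed between the days for Ndufa2 by -0.37 (SE 0.11, limma adjusted p = 0.0395) and for Ndufb11 by -0.46 (SE 0.14, limma adjusted p = 0.0413). Their changes with DEN at day 84 were -0.49 and -0.49 and at day 28 were -0.12 and -0.02, and their levels were below all controls on 3 of 3 DEN arrays of each day. With spike-in scaling these differences were -0.06 and -0.15 and were not called (limma adjusted p = 0.834 and 0.603).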

How the results depend on the processing

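With spike-in scaling the members called turned to 14 higher with DEN at day 28, 43 higher with CCl4 at day 28, 52 higher with DEN at day 84, 18 with CCl4 at day 84 (17 higher, 1 lower), 12 for CCl4 against DEN at day 28 (10 higher, 2 lower), 1 for the DEN interaction and 1 for controls of day 84 against day 28; by construction this adds 1 shift to every gene. For DEN at day 28 the 3 calls became 0 on 1 slide, 1 without the filter, 0 with normexp, 0 with quantile normalisation, 1 with the replicate block and 6 with slide as a block. For DEN at day 84 quantile normalisation gave 25 of 42. CCl4 against DEN gave 27 of 45 at day 28 with only the groups compared, and 12 of 21 at day 84 on 1 slide. The DEN interaction (2) gave 0 without the filter, 4 with probes well above background on all arrays, 13 with only the groups compared, 9 with quantile normalisation, 1 with the replicate block, 1 with median scaling and 5 with slide as a block. Controls of day 84 against day 28 (6) gave 2 without the filter, 3 with normexp, 1 (higher) with quantile normalisation and 0 with slide as a block. Leaving out each array in turn gave 0 to 1 for DEN at day 28 (1 without DEN replicate 3 or control replicate 2, otherwise 0), 47 to 51 for CCl4 at day 28, 33 to 41 for DEN and 50 to 54 for CCl4 at day 84, 35 to 48 and 14 to 23 for CCl4 against DEN (the 14 without DEN replicate 1 and 15 without CCl4 replicate 3), 0 to 4 for the DEN interaction (4 without DEN replicate 3 of day 84, 2 and 1 higher without control replicate 3 of day 84 and of day 28), 1 to 3 for the CCl4 interaction (3 without CCl4 replicate 2 of day 28) and 0 to 2 for the control days (every array). The replicate block changed no other count by over 1.5 times (51, 41 and 55 for CCl4 at day 28, DEN at day 84 and CCl4 at day 84), and since the numbers did not pair the rats it was not used further. Relative to the median of all genes, 8 of the single-gene changes turned sign: Cox6a1 with quantile normalisation (0.19 and 0.0815 with CCl4 at days 28 and 84, 0.18 with DEN at day 84), Cox6b2 (0.40) and Cox8b (0.30) with DEN at day 84 on the mean of all probes, Ndufb4 with CCl4 at day 28 with normexp (0.0476) and quantile normalisation (0.10), and Ndufv1 with DEN at day 84 with normexp (0.0173). A turn was counted only where the change was called in either setting. Of the other single-gene values, 2013 kept their call status, 157 lost the call and 54 gained it. These counts do not follow the sign on the scale of the levels. With spike-in scaling that sign turned for 3 of 3 called genes with DEN and 18 of 24 with CCl4 at day 28. At day 84 it turned for 20 of 23 with DEN and 12 of 26 with CCl4. The cause was not tested. Arrays of 1 slide could not be used for the interactions or the control days. Precision is limited by 3 rats a group, by slides that partly follow the days, and by 75th percentiles that moved against the spike-in probes.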

Other observations

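Outside the chain itself, the carrier Slc25a4, the ADP/ATP exchanger known as the heart and muscle form, rose by 2.73 with CCl4 at day 28, by 2.95 with DEN at day 84 and by 3.62 with CCl4 at day 84 (limma adjusted p = 2.43e-05, 2.26e-05 and 1.9e-06). It belonged to a list of 21 import and membrane genes, of which 4 were higher and 9 lower with CCl4 at day 28, 5 higher and 2 lower with DEN at day 84, 4 higher and 7 lower with CCl4 at day 84, and 0 higher and 2 lower with DEN at day 28. Of all genes, 26.1%, 21.6%, 28% and 7.82% were called higher and 33.6%, 31.1%, 36.3% and 7.19% lower, in that order. Vdac2, an outer membrane pore, rose by 0.54 and 0.58 with CCl4, and Timm23, the inner membrane import channel, fell by 0.50 and 0.59. The medians of that list were -0.06, -0.13, 0.02 and -0.14 for DEN and CCl4 at day 28 and DEN and CCl4 at day 84.

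Mitochondrial ribosomal proteins, which translate the mitochondrially encoded subunits, gave 0 higher and 3 lower of 67 with DEN at day 28, 8 and 22 with CCl4 at day 28, 5 and 21 with DEN at day 84, and 5 and 38 with CCl4 at day 84 (medians -0.09, -0.07, -0.09 and -0.22). Of all genes, 7.82%, 26.1%, 21.6% and 28% were called higher and 7.19%, 33.6%, 31.1% and 36.3% lower, in that order. The same shares apply to the other lists of this paragraph, and no test set any list against other genes. Mrpl14 fell at day 84 by 0.76 (DEN) and 0.73 (CCl4), and Mrps12 rose by 0.51 with CCl4 at day 28. Of 16 citric acid cycle genes, 2 were higher and 7 lower with CCl4 at day 28, 4 higher and 5 lower with DEN at day 84, 2 higher and 8 lower with CCl4 at day 84, and 0 higher and 2 lower with DEN at day 28 (medians -0.16, -0.05, -0.13 and -0.10). Suclg2, a subunit of succinate-CoA ligase, fell by 0.78 and 0.68 with CCl4, and Idh3a, a subunit of isocitrate dehydrogenase, rose by 0.69 with DEN at day 84. Of 25 assembly factors with other symbols, 3 were higher and 7 lower with CCl4 at day 28, 5 and 5 with DEN at day 84, 2 and 14 with CCl4 at day 84, and 1 and 2 with DEN at day 28. Acad9, a complex I assembly factor, rose by 0.31 and 0.74 with DEN at days 28 and 84. Among other cell types, 2 of 4 cholangiocyte markers rose with CCl4 at day 28, 3 with DEN at day 84 and 4 with CCl4 at day 84. Of 8 macrophage markers, 2 rose with DEN at each day, and 3 rose and 3 fell with CCl4 at each day. Endothelial markers gave 2 falls of 3 with CCl4 at each day and with DEN at day 84, and 1 rise with DEN at day 28. Lymphocyte markers gave 2 rises of 5 with either agent at day 28, 1 fall with DEN at day 84, and 2 rises and 1 fall with CCl4 at day 84.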
